A study of Mus musculus with 13 samples.

Results

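The comparison described here was between B16 mouse melanoma cells that lacked both Tdg and Trp53 (double knockout, DKO) and B16 cells that lacked Tdg alone. It measures the loss of Trp53 in cells that have no Tdg, read at transposon and piRNA locus sequences on both strands. The libraries were chosen by genotype label: 2 DKO and 2 Tdg KO libraries, 4 of the 13 in the series. Of 880 elements analysed, 847 had signal in these 4 libraries, and their 2 strands gave 1484 features with signal, where a feature is 1 strand of 1 element. The mean coverage minimum of 0.1 over the 8 B16 libraries left 1246 features for testing, 646 sense and 600 antisense, and 244 of the 1484 features were not tested. Another 6 tested features had signal in WT or Trp53 KO and 0 in these 4 libraries.

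The series holds strand-specific RNA sequencing, after rRNA depletion, of 2 mouse tumor lines, and its title names thymine DNA glycosylase in p53-deficient cancer. The 4 B16 genotypes were wild type (WT), Trp53 KO, Tdg KO and DKO, with 2 libraries each, so that all 4 libraries compared here carry the Tdg knockout and differ in Trp53. The labels give no time, drug or other treatment, and do not say how the knockouts were made, whether a genotype is a single clone, or whether the 2 libraries of a genotype came from separate cultures. The p-values therefore measure only the spread between these libraries, which may be technical. The table holds no protein-coding genes by name, so the knockouts and the melanoma identity were not checked here.

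TDG is a DNA repair enzyme that removes thymine from mismatches with guanine and also excises oxidised forms of 5-methylcytosine, a step in active DNA demethylation. Trp53 encodes p53, a transcription factor of the DNA damage response that has also been linked to the silencing of repeats. Most copies of mouse transposons and of centromeric satellite DNA are kept silent by DNA methylation and repressive histone marks. B1 and B2 are short interspersed elements (SINEs), transcribed by RNA polymerase III or as passengers within longer RNAs, and B1 descends from 7SL RNA, the RNA of the signal recognition particle. IAP, ETn, MERVL and related families are endogenous retroviruses with long terminal repeats (LTRs), and LINE-1 elements are long retrotransposons that copy themselves through RNA.

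The values are mean coverage per base of each element, not scaled to library size, so overall coverage bears on every fold change. Coverage outside 7SL summed to 29692 and 22679 in the 2 Tdg KO libraries and to 57283 and 34781 in the 2 DKO libraries. The median-ratio factors, which measure how high a library stands over well-covered features, were 0.863 and 0.646 in Tdg KO against 1.76 and 1.37 in DKO. Over the 1246 features the log2 change had a median of 1.14, and 88.6% of them were above 0. After median-ratio scaling the median was 0.22 and 55.1% were above 0. Whether more repeat RNA or more reads lies behind the common shift cannot be told apart from these values. The DKO libraries also differed more from each other than the Tdg KO libraries did, with a median absolute log2 difference of 0.81 against 0.48. 7SL took 90.9% and 89.1% of all coverage in Tdg KO and 95.4% and 85.3% in DKO.

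DKO cells had higher coverage than Tdg KO cells at B1 SINEs on both strands and at the antisense strand of the major satellite, while sense coverage of the minor satellite was lower. Of the 1246 features, 38 rose (3.05%) and 1 fell (0.0803%) in limma's moderated test with Benjamini-Hochberg adjustment at 0.05. Of the 38 rises, 14 were B1 elements and 24 were other features, 37 were repeat consensus sequences and 1 was a piRNA locus, and 24 were antisense against 14 sense. The groups did not overlap, with both DKO libraries above both Tdg KO libraries, at 774 features (62.1%), and with both below at 39 (3.13%). A read can be shared by related consensus sequences, and elements of a family are therefore not independent. At an unadjusted p under 0.05, 411 features (33%) were higher and 6 (0.482%) lower.

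The count of rises followed the scaling. With median-ratio scaling 9 features rose (0.722%) and 2 fell (0.161%), with each library centred on its median 2 rose and 2 fell, and with quantile normalization 13 rose and 8 fell. The features that passed in the same direction under all 4 scalings were 3 (0.241%): the sense strand of B1_Mur1 and the antisense strand of SINEB1_MU, which rose, and the sense strand of SATMIN, which fell. Of these, B1_Mur1 sense had signal in DKO alone, and SINEB1_MU antisense was at 0 in both Tdg KO libraries. In the values as deposited, only a rise could be called for either of them. No feature passed in the fit limited to the 4 libraries compared. None rose or fell when either Trp53 KO library or either Tdg KO library was left out, while 5 and 6 rose and none fell without WT library 1 or 2. Without DKO library 1, 76 rose and 5 fell, and without DKO library 2, 291 rose and 9 fell. All 38 rises stayed higher in each of the 8 fits that left out a library. That direction was fixed in advance, because both DKO libraries lay above both Tdg KO libraries at each of these features. The WT and Trp53 KO libraries do not enter the estimated change.

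**Figure D1:**
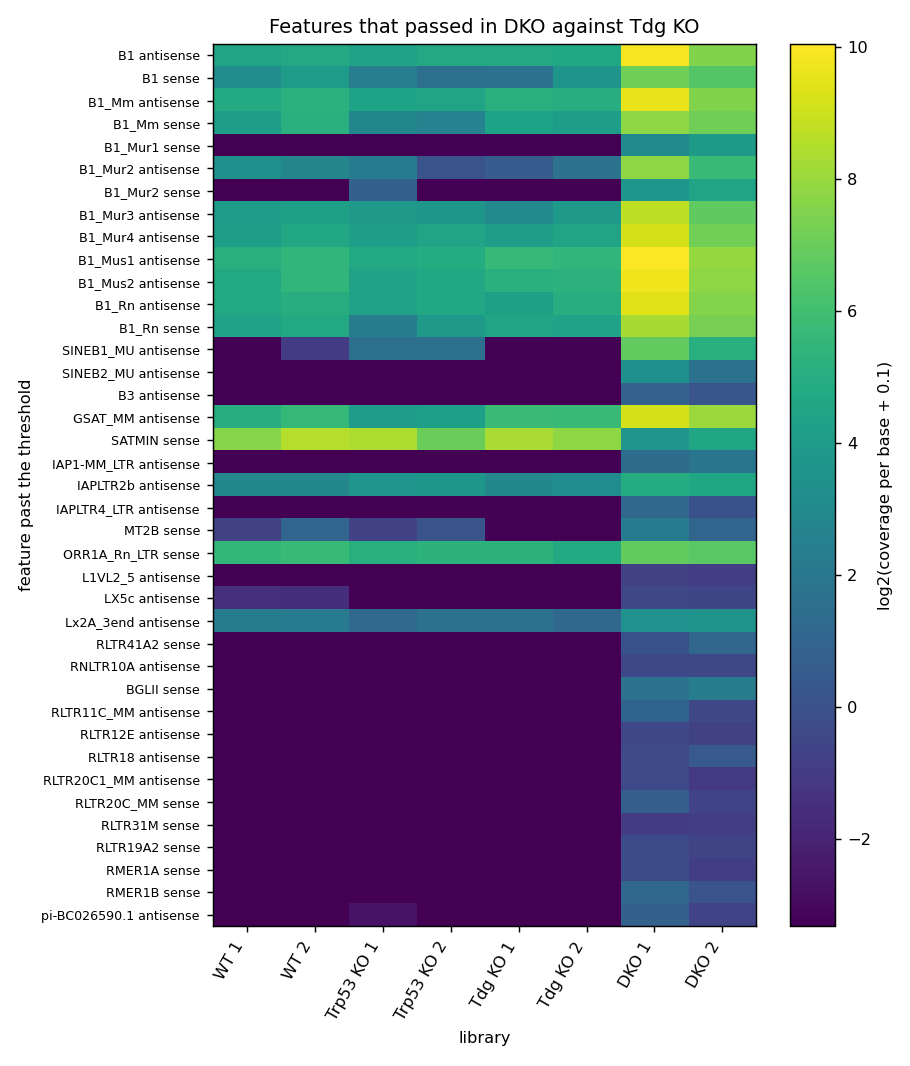
Heat map of log2(coverage per base + 0.1) for the 39 features that passed in DKO against Tdg KO (rows) in the 8 B16 libraries (columns, with the replicate number of each genotype). The 2 DKO columns are higher than the 2 Tdg KO columns in 38 rows and lower in 1, SATMIN sense, and 18 of the rises are at 0 in the 6 libraries outside DKO.

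Of the 38 rises, 23 were at 0 in both Tdg KO libraries and 15 had signal there. For such a feature the fitted change depends on the pseudocount, so a lower bound against a floor of 3 fragments per library is given where the length of the element could be recovered and DKO lay above the floor. That held for 8 of the 23; another 3 lay under the floor and 12 had no recovered length. Mean coverage over the 8 libraries was under 1 for 17 of the 38 rises. 18 were at 0 in all 6 libraries outside DKO. These passed the coverage minimum through DKO alone and had no spread outside DKO. As deposited, all 23 features at 0 in both Tdg KO libraries could be called only as rises, because coverage has no values below 0.

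B1 SINEs were the family with the most rises. On the sense strand 5 of 10 tested members rose, against 2.17% of all sense features, and on the antisense strand 9 of 11 rose, against 4% of all antisense features, and all 21 had both DKO libraries above both Tdg KO libraries, as did 58% of all sense and 66.5% of all antisense features. The median log2 change was 3.71 for B1 sense features and 3.94 for B1 antisense features, against 1.10 and 1.19 over all sense and all antisense features. After median-ratio scaling the B1 medians were 2.66 and 2.88, against 0.19 and 0.25, and 2 sense and 1 antisense member rose.

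B1_Mm, a consensus sequence of Mus, had sense coverage of 21.5 and 17.5 in the 2 Tdg KO libraries and of 219 and 141 in the 2 DKO libraries. Both DKO libraries lay far above both Tdg KO libraries, and the rise was 9.02-fold (log2 change 3.17, SE 0.41; limma adjusted p = 0.0350). It also passed after median-ratio scaling, with a log2 change of 2.12 and a limma adjusted p of 0.0278. In WT the same strand had 18.0 and 36.0, and in Trp53 KO 6.91 and 5.90, so DKO was above all other B16 libraries.

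On the antisense strand B1_Mm had 33.5 and 32.6 in Tdg KO and 769 and 184 in DKO. The groups did not overlap, but DKO library 1 was several times higher than DKO library 2 (log2 change 3.50, SE 0.63; limma adjusted p = 0.0430). The antisense strand of B1_Mus1, with 49.5 and 45.2 in Tdg KO and 1061 and 241 in DKO, had the same order of libraries and a log2 change of 3.42 (limma adjusted p = 0.0493). Its sense strand had 27.6 and 43.4 in Tdg KO and 384 and 188 in DKO, and missed the threshold (log2 change 2.95; limma adjusted p = 0.0521).

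Several B1 entries with little or no signal in Tdg KO had signal in both DKO libraries. B1_Mur1 sense was 0 in all 6 libraries of the other genotypes and 8.27 and 15.7 in the 2 DKO libraries, at least 1.99-fold higher than the floor (limma adjusted p = 0.0154). Here DKO library 2 was the higher of the pair. B1_Mur2 sense was 0 in both Tdg KO libraries and reached 13.1 and 22.3 in DKO, a rise of at least 2.95-fold, with 1.61 in 1 Trp53 KO library as its sole signal elsewhere. B1_Mur2 antisense had 1.38 and 3.14 in Tdg KO and 219 and 51.5 in DKO, higher in both (log2 change 5.60, SE 0.94; limma adjusted p = 0.0430).

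SINEB1_MU, an entry named for the gerbil genus Meriones, took antisense coverage of 115 and 34.9 in DKO and 0 in both Tdg KO libraries, at least 11.2-fold higher (limma adjusted p = 0.0154). It had 2.99 and 2.96 in Trp53 KO and at most 0.421 in WT. An entry of another rodent can take reads only from mouse copies that resemble it, so its coverage and that of the Mus entries may come from the same fragments. The remaining B1 features that rose were B1_Mur3, B1_Mur4, B1_Mus2, B1_Rn and B1 antisense, and B1_Rn and B1 sense, with log2 changes from 3.37 (B1_Rn sense) to 4.29 (B1_Mur3 antisense).

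Summed over the tested members, B1 sense coverage was 116 and 143 in Tdg KO and 1598 and 931 in DKO. The lower DKO library stood 6.50-fold above the higher Tdg KO library, and the DKO libraries differed from each other 1.72-fold. B1 antisense coverage summed to 193 and 217 in Tdg KO and to 5880 and 1390 in DKO, where the lower DKO library stood 6.40-fold above the higher Tdg KO library and the DKO libraries differed 4.23-fold. An exact permutation test of 2 against 2 libraries cannot go below p = 0.333. The antisense strand held 62.4% and 60.2% of B1 coverage in Tdg KO and 78.6% and 59.9% in DKO, so the groups overlapped in strand share.

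**Figure D2:**
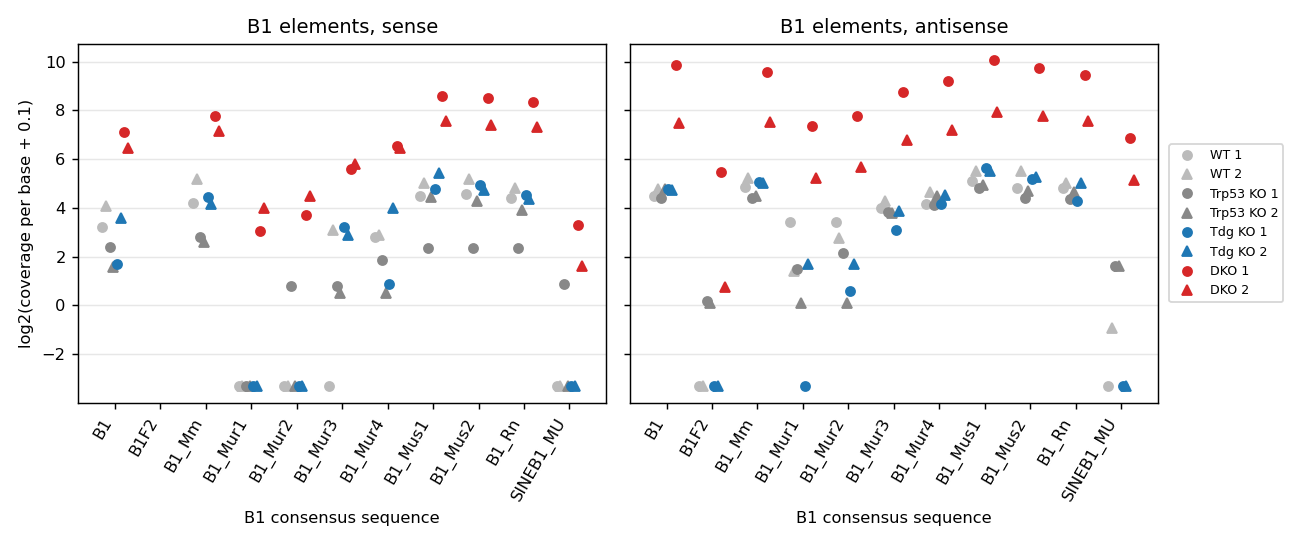
Vertical axis, log2(coverage per base + 0.1) of each tested B1 consensus sequence, sense and antisense, with a point for each of the 8 B16 libraries colored by genotype (circles for replicate 1, triangles for replicate 2); libraries at 0 form the lowest row of points. Both DKO libraries lie above both Tdg KO libraries at all 21 features, and B1_Mm sense stands at 219 and 141 in DKO against 21.5 and 17.5 in Tdg KO.

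The B1 calls depended on the libraries in the fit. None of the B1 features passed without either Trp53 KO or either Tdg KO library, and 2 sense and 1 antisense passed without either WT library. Without DKO library 1, 1 sense and 9 antisense members passed, with medians of 3.34 and 2.90, and without DKO library 2, 4 sense and 10 antisense passed, with medians of 3.98 and 5.12. The direction of the medians was the same in each of these fits, which the lack of overlap at every B1 feature had fixed in advance.

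7SL and PB1, the sequences most like B1, showed a split between the DKO libraries. 7SL sense coverage was 296752 and 185565 in Tdg KO and 1198218 and 202366 in DKO, which did not pass (log2 change 1.07, SE 1.22; limma adjusted p = 0.546). PB1, or proto-B1, an ancestral form of B1 derived from 7SL, had 19.2 and 10.4 on the sense strand in Tdg KO and 1157 and 16.6 in DKO (limma adjusted p = 0.236). PB1 antisense was 32.6 in DKO library 1 and 0 in the other libraries. On the sense strand of 7SL and PB1 the groups overlapped and DKO library 1 alone was high, whereas B1 was high in both DKO libraries. The share of 7SL and PB1 reads in the B1 coverage of DKO library 1 was not tested.

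Of the B2 SINEs, which descend from a tRNA, 1 of 26 features rose. All 13 sense members had both DKO libraries above both Tdg KO libraries, with a median log2 change of 2.21 (1.15 after median-ratio scaling), and 0 rose; over all sense features 58% were higher without overlap and 2.17% rose. Of 13 antisense members 10 were higher without overlap and 1 rose, against 66.5% and 4% of all antisense features, with a median of 2.49 (1.43 scaled). B2_Rat2, the best covered entry, had sense coverage of 71.6 and 57.5 in Tdg KO and 498 and 181 in DKO, just short of the threshold (log2 change 2.22, SE 0.48; limma adjusted p = 0.0501). B2_Mm1a sense had 35.0 and 20.9 in Tdg KO and 237 and 57.2 in DKO (log2 change 2.10; limma adjusted p = 0.0885).

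The B2 feature that rose was SINEB2_MU antisense, another Meriones entry, at 0 in the 6 libraries outside DKO and at 10.4 and 3.09 in DKO (limma adjusted p = 0.0286). Summed B2 sense coverage was 584 and 431 in Tdg KO and 3958 and 1393 in DKO, and the lower DKO library stood 2.39-fold above the higher Tdg KO library. Among older SINEs, B3 antisense rose from 0 in the 6 libraries outside DKO to 1.76 and 1.08 in DKO (limma adjusted p = 0.0350). RSINE2 antisense had signal in replicate 1 of Tdg KO and of DKO alone, with 1.86 in Tdg KO and 2.31 in DKO.

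Among the centromeric satellites the minor satellite fell on the sense strand and the major satellite rose on the antisense strand. Mouse centromeres carry minor satellite DNA, on which the kinetochore forms, and major satellite DNA makes up the flanking pericentromeric heterochromatin. SATMIN, the minor satellite consensus, had sense coverage of 323 and 217 in Tdg KO and of 12.3 and 24.3 in DKO. Both DKO libraries were lower than the other 6 B16 libraries, which ranged down to 132 in Trp53 KO library 2. The log2 coverage fell by 3.93 (SE 0.60; limma adjusted p = 0.0430), and by 4.98 after median-ratio scaling (limma adjusted p = 0.0224). Leaving out 1 library at a time gave log2 changes from -4.42 to -3.44, and the call passed in 1 of the 8 fits.

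On the antisense strand SATMIN had 8.23 and 46.4 in Tdg KO and 194 and 154 in DKO, which missed the threshold (log2 change 3.14, SE 0.87; limma adjusted p = 0.0606). Antisense reads made up 2.48% and 17.6% of SATMIN coverage in Tdg KO and 94.0% and 86.4% in DKO. In WT the share was 9.41% and 5.43%, and in Trp53 KO 1.18% and 9.02%, so the strand that held most reads differed between DKO and the 6 other libraries. Coverage of both strands together was 331 and 264 in Tdg KO and 206 and 179 in DKO. The change in the log2 ratio of sense to antisense was -7.07 (SE 1.35), with a limma adjusted p of 0.360 over 516 elements.

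GSAT_MM, the major satellite consensus, had antisense coverage of 55.8 and 50.7 in Tdg KO and of 585 and 260 in DKO. Both DKO libraries were above all other B16 libraries, of which WT had 32.4 and 47.5 and Trp53 KO 16.5 and 18.3. The rise was 7.32-fold (log2 change 2.87, SE 0.42; limma adjusted p = 0.0429), and 1.81 on the log2 scale after median-ratio scaling (limma adjusted p = 0.0876). Its sense strand had 5.04 and 1.25 in Tdg KO and 186 and 223 in DKO, a difference of 6.27 on the log2 scale with wide error (SE 2.27; limma adjusted p = 0.112). GSAT_MM coverage of both strands together was 60.8 and 52.0 in Tdg KO and 771 and 483 in DKO.

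**Figure D3:**
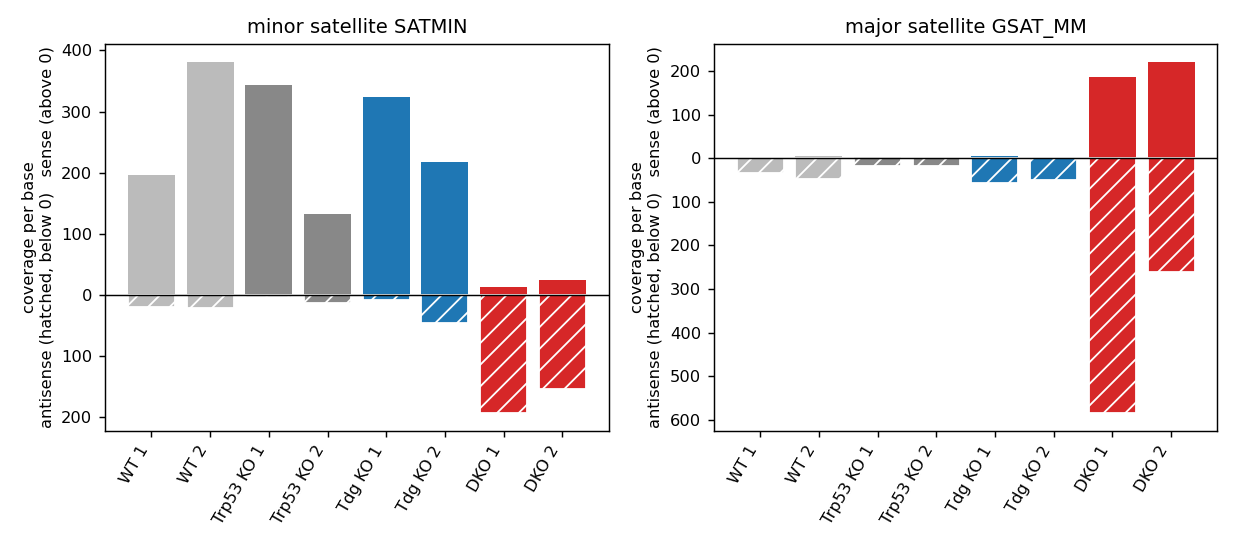
Coverage per base of the minor satellite SATMIN and the major satellite GSAT_MM in the 8 B16 libraries, sense plotted above 0 and antisense below it. SATMIN sense is 12.3 and 24.3 in DKO against 323 and 217 in Tdg KO, and GSAT_MM is higher on both strands in DKO.

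Among other satellites and tandem repeats no feature passed on either strand in the values as deposited. ZP3AR antisense, a tandem repeat entry, had 70.4 and 44.8 in Tdg KO and 23.3 and 18.2 in DKO. The groups did not overlap; the log2 change of -1.44 did not pass as deposited (limma adjusted p = 0.0699), whereas the median-ratio scaled change of -2.50 passed (limma adjusted p = 0.0224). IMPB_01 sense was high in replicate 1 of each group, with 222 in Tdg KO and 832 in DKO, and was 0.468 and 1.31 in replicate 2.

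Endogenous retroviruses of the IAP family rose at a few LTR entries on the antisense strand and did not pass at their internal sequences. IAPLTR2b antisense had 7.20 and 8.86 in Tdg KO and 30.4 and 23.1 in DKO, a 3.29-fold rise with no overlap (log2 change 1.72, SE 0.29; limma adjusted p = 0.0430). After median-ratio scaling its change was 0.67 and did not pass (limma adjusted p = 0.331). IAP1-MM_LTR and IAPLTR4_LTR antisense were 0 in the 6 libraries outside DKO. In DKO, IAP1-MM_LTR had 2.51 and 3.63 and IAPLTR4_LTR had 2.19 and 0.949. Both entries passed the coverage minimum through DKO alone, so they could be called only as rises. With IAPLTR2b they are the 3 rises counted next. Of the 21 antisense features of IAPEZ and the IAP LTRs, 3 rose and 19 were higher without overlap, against 4% and 66.5% of all antisense features, with a median of 1.29 (0.24 scaled).

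On the IAP sense strand, which carries most of the coverage, 0 of 21 features passed, with a median of 0.54 (-0.51 scaled). Without overlap 10 were higher and 3 lower, against 58% and 4.8% of all sense features. IAPEZI, the best covered of the 21, had 3005 and 2450 in Tdg KO and 2448 and 1805 in DKO. Both DKO libraries were lower, by a narrow margin between the nearest libraries. The change was smaller than its SE (log2 change -0.37, SE 0.42, limma adjusted p = 0.550). Summed IAP sense coverage was 6758 and 5528 in Tdg KO and 7694 and 4890 in DKO, so the groups overlapped. IAPEZI had been higher in WT (5205 and 2942) and Trp53 KO (6322 and 4179) than in the DKO libraries, without overlap.

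Among other LTR families single entries rose, several from 0. BGLII sense, of class ERV2, was 0 in the 6 libraries outside DKO and reached 3.21 and 4.81 in DKO, at least 1.46-fold above the floor (limma adjusted p = 0.0154). MT2B sense, an LTR of class ERV3, was 0 in both Tdg KO libraries and reached 4.55 and 1.97 in DKO, a rise of at least 2.19-fold. It also had signal in WT (0.497 and 1.98) and Trp53 KO (0.500 and 0.992), so the Tdg KO libraries were those at 0. RMER1B sense was 0 outside DKO and reached 2.16 and 0.962 in DKO, a rise of at least 1.85-fold.

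ORR1A_Rn_LTR, a MaLR entry of class ERV3, was the LTR rise with the highest coverage. Its sense strand had 39.5 and 27.8 in Tdg KO and 116 and 101 in DKO, while WT had 45.4 and 52.4 and Trp53 KO 34.5 and 40.4. The 3.24-fold rise left no overlap with any other library (log2 change 1.70, SE 0.27; limma adjusted p = 0.0430), and after median-ratio scaling the change was 0.64 and did not pass (limma adjusted p = 0.223). RLTRETN_MM antisense, the LTR of the ETn family, had 5.37 and 8.06 in Tdg KO and 28.2 and 30.7 in DKO, and stopped just short of the threshold (log2 change 2.14; limma adjusted p = 0.0501). The remaining LTR entries that rose were RLTR11C_MM, RLTR12E, RLTR18, RLTR20C1_MM and RNLTR10A antisense and RLTR19A2, RLTR20C_MM, RLTR31M, RLTR41A2 and RMER1A sense. All were at 0 in every library outside DKO, so they passed the coverage minimum through DKO alone and could be called only as rises. RLTR20C_MM and RLTR31M lay under the floor, with DKO means of 1.05 and 0.448 against floors of 3.52 and 1.53. The others had no recovered length.

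The internal sequences of the abundant retrovirus families did not pass. RLTR4I_MM, like the murine leukemia virus, had sense coverage of 3048 and 2272 in Tdg KO and 4487 and 2950 in DKO (log2 change 0.47; limma adjusted p = 0.451). MMERGLN_I sense had 557 and 507 in Tdg KO and 751 and 1067 in DKO, higher without overlap but short of the threshold (log2 change 0.75; limma adjusted p = 0.199). MMETN sense, of the ETn family, had 11.3 and 5.74 against 4.84 and 7.99, and the groups overlapped. MT2B2_LTR sense, an LTR entry listed with MERVL and not an internal sequence, also did not pass, with 30.9 and 17.7 against 39.5 and 46.4 (log2 change 0.87, limma adjusted p = 0.171). MT2B2_LTR, RLTR4I_MM and MMERGLN_I were lower, not higher, after median-ratio scaling, at -0.19, -0.59 and -0.31.

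LINE-1 elements had smaller log2 differences than most features, and 3 of their antisense features rose. On the sense strand of young LINE-1 entries 0 of 36 passed, and the median log2 change was 0.53 against 1.10 over all sense features. After scaling it was -0.52, with 2 of 36 features above 0. L1MdF_IV sense had 95.7 and 56.5 in Tdg KO and 101 and 105 in DKO (log2 change 0.49; limma adjusted p = 0.447), and its antisense strand had 141 and 114 against 145 and 210. On the antisense strand of young LINE-1 entries 1 of 39 rose, near the 4% of all antisense features: L1VL2_5, from 0 to 0.500 and 0.443. L1VL2_5 antisense was at 0 in every library outside DKO, so only a rise could be called.

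Older LINE-1 antisense features held 2 rises among 32, a share near the 4% of all antisense features. Lx2A_3end had 3.11 and 2.14 in Tdg KO and 10.9 and 11.4 in DKO, a 4.19-fold rise in which the DKO libraries were close to each other (log2 change 2.07, SE 0.38; limma adjusted p = 0.0447). After median-ratio scaling its log2 change was 1.03 and did not pass (limma adjusted p = 0.226). LX5c had 0 in both Tdg KO and both Trp53 KO libraries, 0.243 and 0.241 in WT, and 0.618 and 0.600 in DKO. Its DKO mean of 0.609 lay under its floor of 0.710. None of 30 older LINE-1 sense features passed.

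**Figure D4:**
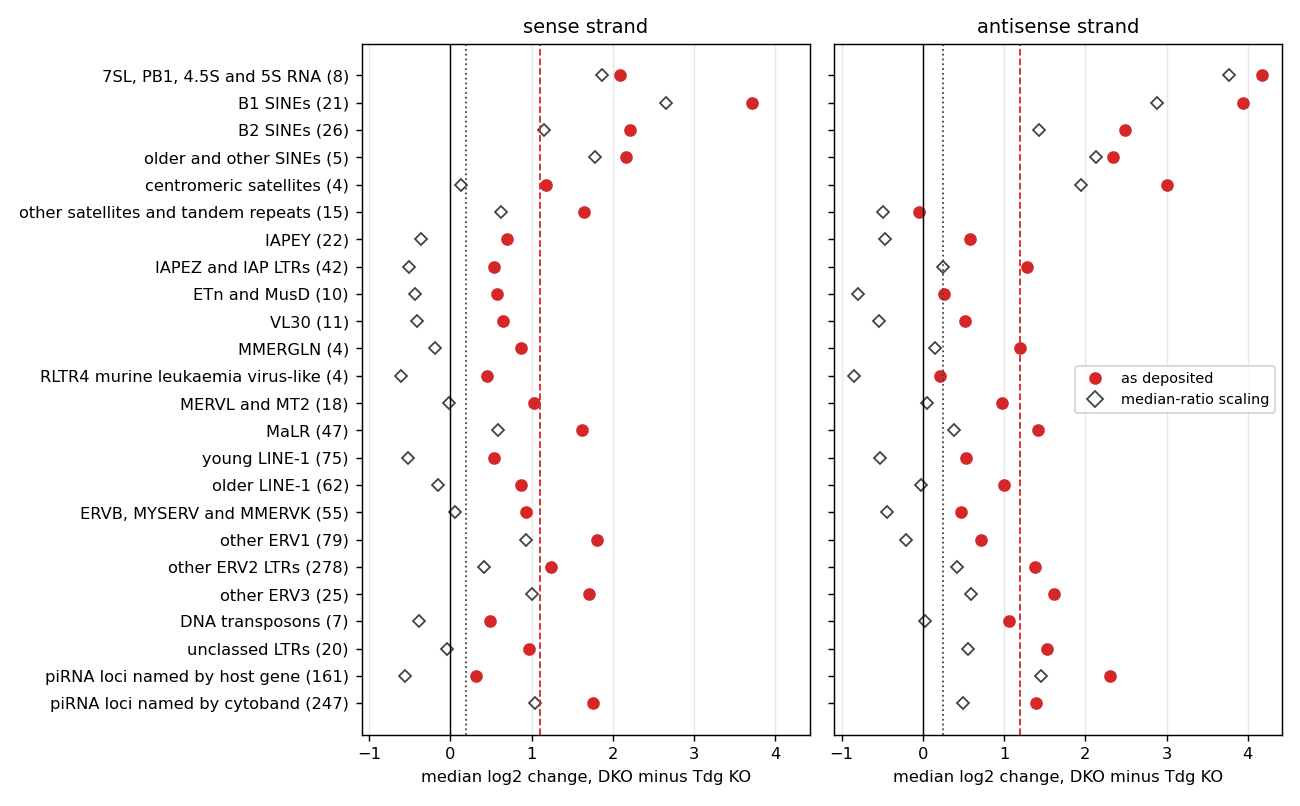
Median log2 change, DKO minus Tdg KO, of each element list (rows, with the number of features tested on both strands together), in separate panels for sense and antisense, for the values as deposited (red circles) and after median-ratio scaling (open diamonds), with dashed and dotted lines for the medians over all features. B1 stands at 3.71 and 3.94 as deposited, and young LINE-1 sense at 0.53, which turns to -0.52 after scaling.

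At piRNA loci 1 of 408 tested features rose, against 3.05% of all features. These loci are defined by small RNAs of the germ line; those named by a host gene lie on protein-coding transcripts, so coverage of them in tumor cells can come from the mRNA. pi-BC026590.1 antisense was 0 in both Tdg KO libraries and reached 1.67 and 0.553 in DKO, at least 2.51-fold above the floor (limma adjusted p = 0.0493). Loci named by host gene had a median change of 0.32 (-0.56 scaled) on the sense strand. They had 50 of 117 sense features higher and 22 lower without overlap, against 58% and 4.8% of all sense features. Their 44 antisense features had a median of 2.30 (1.45 scaled), with 35 higher and none lower without overlap, against 66.5% and 1.33% of all antisense features.

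Loci named by cytoband in place of a gene had medians of 1.76 on the sense and 1.40 on the antisense strand. After median-ratio scaling these were 1.04 and 0.49, against 0.19 and 0.25 over all sense and all antisense features. Without overlap, 107 of 126 and 95 of 121 features were higher, against 58% of all sense and 66.5% of all antisense features. pi-Rplp1.1 sense, the best covered piRNA locus, had 1470 and 1206 in Tdg KO and 4720 and 1158 in DKO, so that DKO library 1 alone was high, as it was for 7SL. The lower piRNA features with the smallest p were pi-Ccdc117.1 sense, with 0.557 and 0.340 in Tdg KO and 0 in both DKO libraries (limma adjusted p = 0.0902), and pi-Cbl.2 sense, with 0.404 and 0.278 against 0.0592 and 0.0556 (limma adjusted p = 0.133). Isoforms of a host gene share sequence and are not separate loci. Cytoband entries that differ only in their last number, such as those of 6-qC3-100, may share reads in the same way. The 126 and 121 features are therefore not independent loci.

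The balance of strands was compared within libraries, where the scale of a library cancels. In limma on the log2 ratio of sense to antisense, 0 of 516 elements with both strands tested passed, while 15 (2.91%) moved toward antisense and 25 (4.84%) toward sense at an unadjusted p under 0.05. SATMIN was the element with the largest shift toward antisense among these 15. At pi-Elk4.1, chosen after its values were seen, the antisense share was 4.0% and 3.87% in Tdg KO and 13.1% and 10.7% in DKO (limma adjusted p = 0.360). With the minor strand of each element taken from the WT libraries, its share was higher in both DKO than in both Tdg KO libraries at 119 of 440 elements (27%) and lower in both at 51 (11.6%). The median share over the 440 elements was 36.0% and 33.0% in Tdg KO and 35.6% and 34.4% in DKO, so the groups overlapped.

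The loss of Trp53 was also measured with Tdg present, as Trp53 KO against WT, and the difference between both effects was tested as an interaction. No feature passed in limma's interaction contrast (smallest adjusted p = 0.0662). At an unadjusted p under 0.05 in that contrast, 427 features (34.3%) had a higher and 10 (0.803%) a lower effect of Trp53 loss in cells without Tdg. The values were not scaled to library size, and the median interaction over all features was 1.66 on the log2 scale. How much of these counts comes from the common shift of the DKO libraries was not tested. For B1_Mm sense the log2 effect of Trp53 loss was 3.17 without Tdg and -1.98 with Tdg, an interaction of 5.15 (SE 0.58; limma adjusted p = 0.0662). For GSAT_MM antisense it was 2.87 against -1.17 (interaction 4.04, SE 0.60; limma adjusted p = 0.0662), and for SATMIN sense -3.93 against -0.36 (interaction -3.56, SE 0.85; limma adjusted p = 0.0757). The Trp53 KO against WT changes did not pass for B1_Mm sense, GSAT_MM antisense or SATMIN sense (limma adjusted p = 0.377, 0.656 and 0.900). Over the B1 sense features the median log2 effect of Trp53 loss was 3.71 without Tdg and -1.42 with Tdg. Over B2 sense features it was 2.21 and -1.47. The same medians over all sense features were 1.10 and -0.37.

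DKO was also set against Trp53 KO; that comparison shares the DKO libraries with the one above, and its values are given side by side. B1_Mm sense was higher in DKO by 4.76 on the log2 scale against Trp53 KO (limma adjusted p = 0.0103) and by 3.17 against Tdg KO. GSAT_MM antisense was higher by 4.48 (limma adjusted p = 0.0112) and by 2.87. SATMIN sense had log2 changes of -3.61 (limma adjusted p = 0.0163) against Trp53 KO and -3.93 against Tdg KO.

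**Figure D5:**
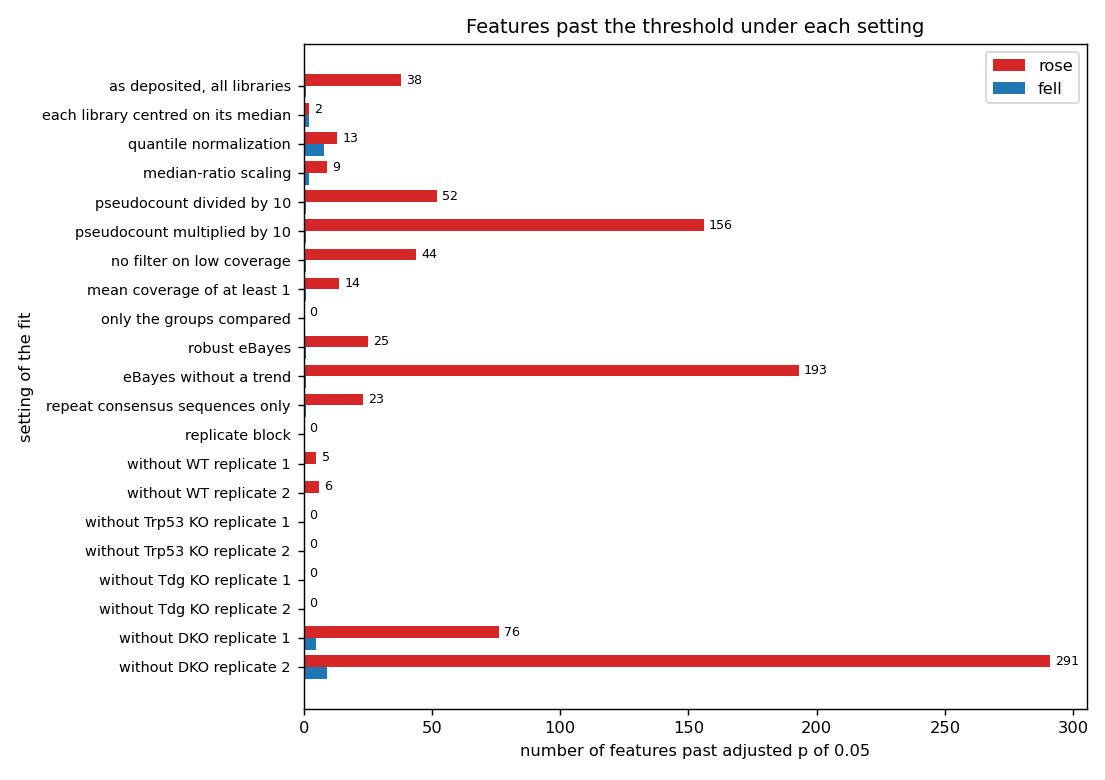
Number of features past an adjusted p of 0.05 (horizontal axis, in features) that rose and that fell in DKO against Tdg KO, for the values as deposited with all libraries and for each other setting of the fit (rows). The count of rises is 38 as deposited, 9 after median-ratio scaling, 0 without either Tdg KO library and 291 without DKO library 2.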

How the data were processed

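Total RNA of B16 cells was extracted, depleted of rRNA and made into directional libraries, per the labels' protocols. The authors deposited a table of mean signal, named for piPipes, in which each library has 1 sense and 1 antisense column, per the file headers; the antisense values carry a minus sign, which was dropped. HISAT2, DESeq2 and mm10 are named, with no versions, per the submitters' processing notes. How reads with several matches were assigned, the alignment settings and the read totals were not given in the sources used here, so depth is unknown.

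The table had 2035 rows, of which 885 had signal in B16, and 5 exact duplicates were left out to leave 528 repeat consensus sequences and 352 piRNA loci. Among 609 elements that had at least 6 distinct nonzero values, those of 608 were whole multiples of a single step (tolerance 0.01 base), so the deposited coverage carries no scaling to library size. The lowest value was most often 298 covered bases, taken as 1 fragment. No sequences of the consensus entries were used here.

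Values were analysed as log2(coverage + 0.1) in R 4.3.3 by limma 3.58.1, its lmFit followed by eBayes with a mean trend, over all 8 B16 libraries. Fold changes on that scale understate the change of low features with signal in both groups. For features at 0 in both Tdg KO libraries the fitted fold depends on the pseudocount. SINEB1_MU antisense was fitted at 636-fold, against a lower bound of 11.2-fold. Features with mean coverage of at least 0.1 were kept, contrasts were two-sided, and p-values were adjusted over the 1246 features of both strands at 0.05. Alternatives were 3 scalings, pseudocounts, filters, eBayes options, the compared groups alone, repeats alone, a replicate block and leaving out each library; B1 counts under each and the left-out count for all scalings were added after seeing the data. Median-ratio scaling used features with mean coverage of at least 1. The fit was also run on simulated data to check that known changes were recovered.

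Named features are the largest passing changes with mean coverage of at least 1 and no overlap (up to 15 in each direction, or up to 5 by smallest p where few passed), the best covered and best covered passing feature of each list and strand, those passing under all 4 scalings, and a short list of family representatives. Others were chosen after their values were seen. The members, lists and tests were chosen with earlier results of these data known. Lists were made from element names.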

Additional observations from a re-analysis of the deposited data

How the results depend on the processing

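The count of features past the threshold in DKO against Tdg KO moved with most choices. As deposited 38 rose and 1 fell. The counts that rose and fell were 2 and 2 with each library centred on its median, 13 and 8 with quantile normalization, and 9 and 2 with median-ratio scaling. With other choices 156 rose with the pseudocount multiplied by 10, 14 with a mean coverage of at least 1, 25 with robust eBayes, 193 without a trend in eBayes and 23 over repeat consensus sequences only, and 0 rose and 0 fell in the groups compared alone. With a library left out, from 0 to 291 rose and from 0 to 9 fell. The correlation of same-numbered deviations was 0.18 between Tdg KO and DKO, the highest of the 6 pairs of groups, and -0.013 to 0.040 over the others. Whether the replicate numbers pair the libraries is not settled by these values. With a replicate block 0 rose and 0 fell. The interaction count, 0 as deposited, was 7 higher with the pseudocount divided by 10, 1 with a mean coverage of at least 1, 24 higher and 4 lower without a trend, and from 0 to 296 higher and 0 to 8 lower with a library left out. The strand ratio count toward antisense was 0 to 2 with a library left out. What caused these differences in count was not tested. None of the 39 features that passed turned in direction under any alternative, which for the left-out fits was fixed in advance by the lack of overlap. Depth per library is unknown, so no depth limit can be set.

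Named features that had not passed turned in direction under a scaling as follows, in log2 change with centring, quantile normalization and median-ratio scaling. IAPEY_LTR antisense had -0.71, -0.13 and -0.26, and IAPEY4_I sense had -0.81, -0.27 and -0.36. IAPEZI antisense had -1.19, -0.65 and -0.74, and IAPLTR1a_I_MM antisense had -1.13, -0.54 and -0.69. L1_Mus1_3end antisense had -0.89, -0.48 and -0.45, and L1Lx_I sense had -1.17, -0.56 and -0.72. L1MdF_IV antisense had -1.04, -0.41 and -0.60, and L1MdF_IV sense had -1.01, -0.71 and -0.57. LX2B antisense had -0.66, -0.20 and -0.22, and MMERGLN_I sense had -0.75, -0.41 and -0.31. MMETN antisense had -1.25, -0.79 and -0.80, and MMVL30 sense had -0.93, -0.33 and -0.49. MT2B2_LTR antisense had -0.91, -0.46 and -0.47, and MT2B2_LTR sense had -0.63, -0.063 and -0.19. MTAI sense had -1.25, -0.55 and -0.81, and RLTR13B antisense had -1.32, -0.90 and -0.87. RLTR13B sense had -0.52, -0.36 and -0.053, and RLTR13B3 sense had -1.40, -0.88 and -0.96. RLTR1B_MM antisense had -1.08, -0.73 and -0.64, and RLTR35_MM antisense had -0.86, -0.40 and -0.41. RLTR4I_MM antisense had -1.32, -0.70 and -0.88, and RLTR6I_MM antisense had -0.98, -0.44 and -0.54. RSINE2 antisense had -1.35, -1.06 and -0.34. With centring alone the sign turned for 7SL sense (-0.43), BGLII_LTR antisense (-0.13), LTRIS sense (-0.18), MMERGLN_LTR antisense (-0.25) and RLTR1B_MM sense (-0.023). With centring and quantile normalization it turned for URR1 antisense (-0.44 and -0.25), and with centring and median-ratio scaling for MTAI antisense (-0.76 and -0.32), pi-Rplp1.1 sense (-0.69 and -0.25) and RLTR4I_MM sense (-1.03 and -0.59). Summed coverage turned with median-ratio scaling to -1.05 for IAPEZ and IAP LTRs sense, -0.28 for IAPEZ and IAP LTRs antisense, -0.50 for young LINE-1 sense and -0.53 for young LINE-1 antisense. With a library left out the sign depended on the library for 7SL sense from -0.21 to 2.35, IMPB_01 sense from -2.99 to 6.21, L1Lx_I sense from -0.019 to 0.69, MMERVK10C antisense from -0.19 to 0.14 and MMERVK10C sense from -0.88 to 0.39. The same held for MMETN antisense from -0.12 to 0.63, MMETN sense from -0.85 to 0.11, pi-D10Wsu102e.2 antisense from -0.44 to 0.070, pi-Rplp1.1 sense from -0.20 to 1.83 and RLTR13B antisense from -0.042 to 0.41. It also held for RLTR13B3 sense from -0.22 to 0.41, RLTR35_MM sense from -0.92 to 0.77 and RSINE2 antisense from -2.15 to 2.44.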
